A study of Homo sapiens with 6 samples.

Results

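The genes described here are 34 genes of the NRF2 and antioxidant system, listed by name for their known roles, with HMOX1 left out. Of these, 31 had a value, among 22085 genes measured in all. The values come from arrays of BT549 cells, an established human triple-negative breast cancer line with mesenchymal features, carrying miR-200c in pTripZ, a doxycycline-inducible vector. Culture was attached, in RPMI with 10% fetal bovine serum. In the doxycycline group (n = 3, replicates A, B and C) they received 1 µg/mL doxycycline for 48 hours, and in the untreated group (n = 3, A, B and C) none, over the same 48 hours. Cultures were plated in triplicate and called biological replicates. Whether a letter marks a shared plate or day is not stated, and errors and tests cover only the spread among these plated cultures. No arrays of doxycycline-treated cells without the construct were analysed here, and effects of doxycycline itself and of miR-200c cannot be told apart. In bulk RNA, fewer cells with a transcript and less of it per cell cannot be told apart either.

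NRF2, encoded by NFE2L2, is a transcription factor that switches on antioxidant and detoxifying genes. In unstressed cells KEAP1 holds it for ubiquitination and breakdown. Oxidants and electrophiles modify KEAP1, NRF2 accumulates, pairs with a small MAF protein such as MAFG and binds antioxidant response elements, where BACH1 competes with it as a repressor. SQSTM1 (p62), an autophagy receptor, binds KEAP1 and can carry it to autophagosomes. The target genes make and recycle glutathione and thioredoxin, supply NADPH, and reduce quinones, peroxides and carbonyl compounds.

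The microRNA that was induced is shown first, with its family, because the family falls into 2 seed groups and only one of them holds miR-200c. KEAP1 is known as a target of miR-200a in human breast cancer cells, and miR-200a belongs to the other seed group. Mature sequences are from RefSeq (GRCh38.p14), 5′ to 3′, with the seed, bases 2 to 8, in capitals. miR-200c-3p lies at chr12:6963742-6963764 on the plus strand.
hsa-miR-200c-3p: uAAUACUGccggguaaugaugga
hsa-miR-200b-3p: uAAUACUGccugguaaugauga
hsa-miR-429: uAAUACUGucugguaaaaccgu
hsa-miR-200a-3p: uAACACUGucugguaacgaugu
hsa-miR-141-3p: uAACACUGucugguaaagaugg
The first 3 share one seed, and miR-200a-3p and miR-141-3p share another, which differs from it by U4C, counted from the 5′ end. The array's single MIR200C row had a mean of 4.96 ± 0.26 (SD, n = 3) log2 units untreated and 9.53 ± 0.024 in doxycycline.

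The values are log2 intensities of exon regions and exon junctions, called rows below, and a gene's value is the mean over the rows that name that gene alone. Rows of a gene share the RNA and are not replicates. Counts of rows by direction describe where in a gene a difference lies and add no support to it. They have no share over all genes beside them. Background rows of the arrays ran from 4.10 to 6.36, and a mean under 6.36 is called within the background range. Over all rows the array medians lay between 5.18 and 5.21, and the number of arrays limits the precision of every value. The untreated cells had means above the background range for VIM (10.46), CDH2 (9.90) and FN1 (8.97). ESR1, PGR and EPCAM were within it, while ERBB2 had no value and was not checked. Also within it were the leukocyte genes PTPRC and CD3E and the endothelial genes PECAM1 and CDH5. CD68, also a lysosomal membrane protein gene, was above it (8.34). Some of these markers moved with doxycycline: CD68 fell by 0.70 and FN1 by 0.41, while CDH2 rose by 0.15 and EPCAM, within the background range, by 0.49. Their part in the results below was not tested. HMOX1, the heme oxygenase gene left out of the set, fell by 1.08 (adjusted p = 1.65e-05 in limma). For 3 of the 34 genes there is no value: every row of BACH1 (46) and of SRXN1 (15) carries a second gene's symbol, and no row of the annotation used here names AKR1B1.

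Most of the antioxidant system passed no test, and the genes that did went in both directions. In doxycycline 3 of 31 genes rose (AKR1B10, GPX3 and GSR) and 5 fell (AKR1C3, CAT, AKR1C2, SQSTM1 and AKR1C1), at an adjusted p under 0.05 in limma with Benjamini-Hochberg adjustment over all genes. These are 9.68% and 16.1% of the members, where 6.06% of all genes rose and 3.84% fell. Of the 8 changed genes 4 had both group means within the background range, as had 3 others. Among the 24 members whose mean over all arrays was above that range, 2 rose and 2 fell. There, 11.2% of all such genes rose and 7.28% fell, so the members' shares were near the background. The median log2 change was -0.04 over the 31 members and -0.01 over all genes. All log2 changes are doxycycline minus untreated.

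**Figure D1:**
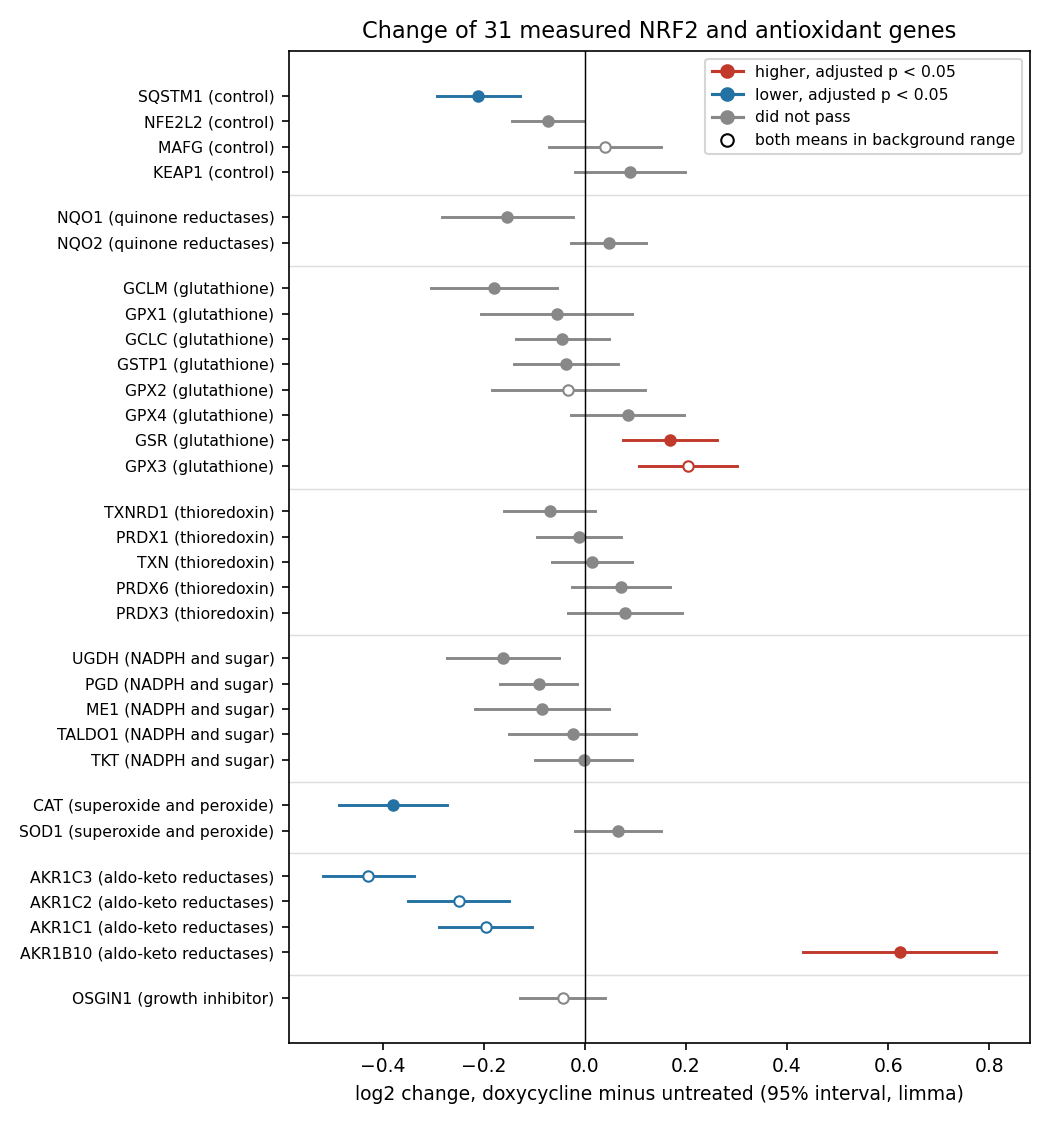
Log2 change of each measured member, doxycycline minus untreated, with its 95% interval from limma (n = 3 arrays per group), grouped by role. Red and blue mark the 3 genes that rose and the 5 that fell, grey the 23 that did not pass, and open circles genes within the background range in both groups; the aldo-keto reductases lie at both ends.

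The regulators of NRF2 were led by a fall of SQSTM1, and NFE2L2 and KEAP1 did not pass. In array order A, B, C, as throughout, SQSTM1 read 8.22, 8.18 and 8.14 untreated and 8.004, 7.96 and 7.94 treated. All treated arrays were below all untreated ones. The change was -0.21 (SE 0.04, adjusted p = 0.00725 in limma), a fall of 1.16-fold. Of its 67 rows 39 were above the background range in at least one group, and 35 of these were lower in doxycycline, with a median row change of -0.35, while 4 were higher. Taking the median of its rows in place of the mean gave -0.48 for the gene, with an adjusted p of 0.423.

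NFE2L2 read 8.14, 8.12 and 8.13 untreated and 8.06, 8.04 and 8.07 treated. The groups did not overlap, but the difference was small, at -0.07 (95% interval -0.14 to -0.00205), and did not pass over all genes (adjusted p = 0.214 in limma). KEAP1 read 7.81, 7.90 and 7.88 untreated and 8.04, 7.89 and 7.92 treated. The groups overlapped, and the difference of 0.09 (95% interval -0.02 to 0.20) did not pass (adjusted p = 0.342 in limma). The KEAP1 difference turned to -0.00455 with the median of its rows. MAFG stayed within the background range in both groups, with means of 5.29 and 5.33.

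Aldo-keto reductases changed in opposite directions. These enzymes reduce aldehydes and ketones with NADPH; AKR1B10 acts on retinal and reactive aldehydes, and AKR1C1, AKR1C2 and AKR1C3 on steroids and prostaglandins. All 4 measured members passed the test, AKR1B10 upwards and the AKR1C genes downwards. Of all genes 6.06% rose and 3.84% fell. AKR1B10 read 6.34, 6.27 and 6.43 untreated and 6.98, 6.78 and 7.14 treated. The groups were well apart, and B was the lowest array in each. The change was 0.62 (SE 0.08, adjusted p = 0.00213 in limma). The untreated mean of 6.34 lay just inside the background range, so the rise is given as a bound, at least 1.52-fold over 6.36.

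Single rows of AKR1B10 moved further than the gene's mean. Of its 32 rows 20 were above the background range in at least one group, and 13 of these in both. Of the 20 rows 17 were higher in doxycycline, with a median change of 1.06, against 0.47 over all 32 rows. A row above the range in a single group is higher in that group by definition. Neither its direction nor the size of a median that includes it is separate support. The row with the largest rise past the row-level threshold was a junction that read 5.59, 5.10 and 5.48 untreated and 7.73, 7.02 and 7.69 treated. Its change was 2.09 (SE 0.22, adjusted p = 0.0144 in limma over all rows). The treated arrays were all above the background range and the untreated ones all within it. Counted from 6.36 to the treated mean, the rise of this junction was 2.17-fold, a figure without error. The gene's change by the median of its rows was 0.92 with an adjusted p of 0.0593.

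**Figure D2:**
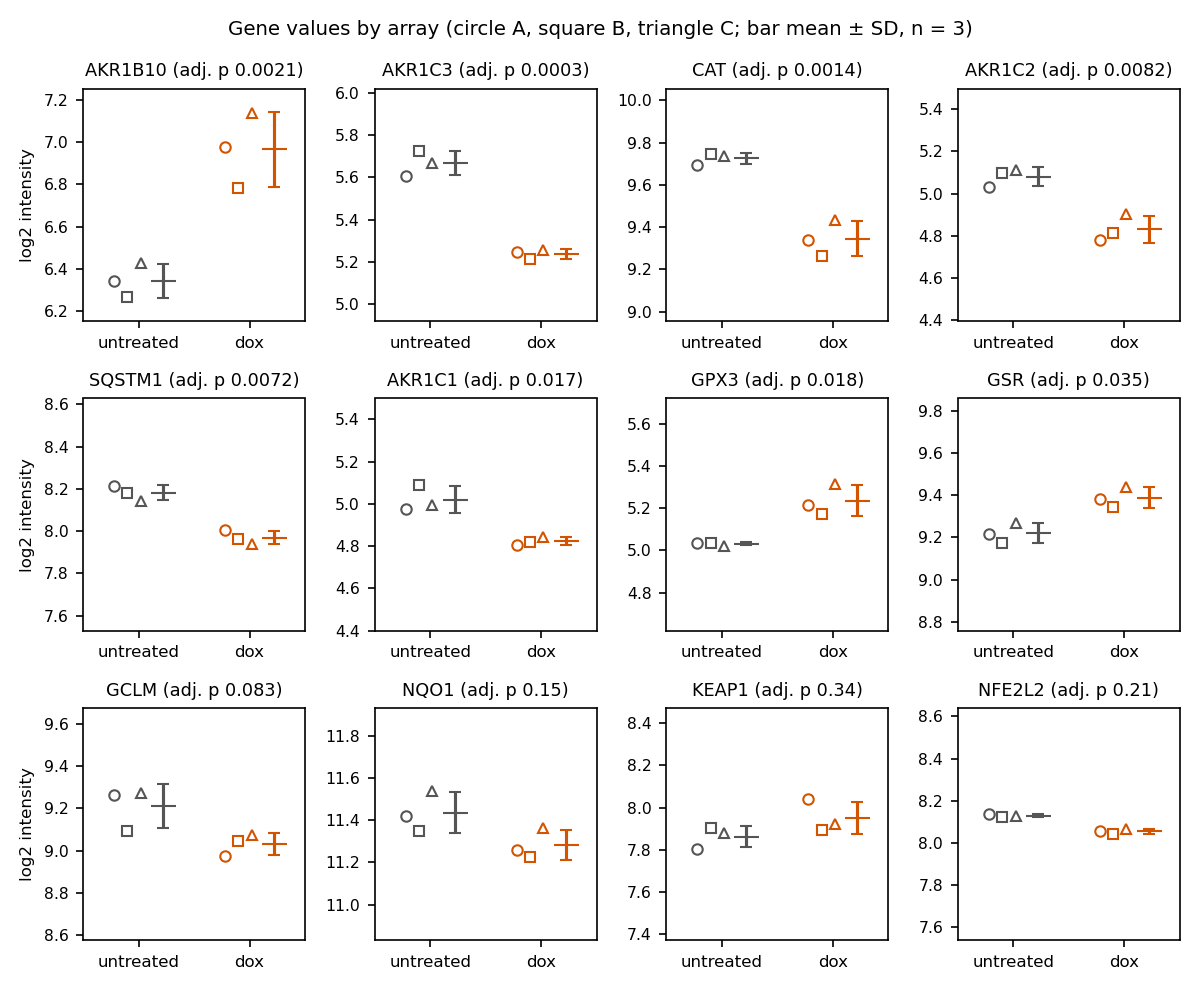
Log2 intensity of 12 members on each array, with untreated arrays in grey and doxycycline arrays in orange; symbols mark replicates A, B and C, bars give the mean and SD (n = 3), and every panel spans the same number of log2 units. Among the genes that passed, all treated arrays lie on one side of all untreated arrays, while the groups of NQO1 and KEAP1 overlap.

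AKR1C3 fell, with readings of 5.61, 5.72 and 5.67 untreated and 5.25, 5.21 and 5.26 treated. The difference was -0.43 (SE 0.04, adjusted p = 2.96e-04 in limma). Both means were within the background range, so no fold is given for the gene. Of its 35 rows 10 were above that range in at least one group, and 4 of these in both. All 10 were lower in doxycycline, with a median change of -0.91, against -0.23 over all 35 rows. The rows above it in a single group are higher in that group by definition. Neither their direction nor the size of this median is separate support. The brightest row of AKR1C3, an exon region, changed by -0.33 and the next, a junction, by -0.23. Neither passed over all rows (adjusted p = 0.741 and 0.568 in limma). The row with the largest fall was a junction at 8.04, 8.49 and 8.43 untreated and 6.31, 6.22 and 6.71 treated. It fell by 1.90 (SE 0.17, adjusted p = 0.00853 in limma over all rows), and all untreated values of this junction were far above the background range. Treated arrays A and B lay within that range and C above it.

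AKR1C2 read 5.03, 5.10 and 5.11 untreated and 4.78, 4.81 and 4.90 treated, and AKR1C1 read 4.97, 5.09 and 4.99 untreated and 4.81, 4.82 and 4.84 treated. In each gene the treated arrays were the lower ones and both means were in the background range. The differences were -0.25 (SE 0.04, adjusted p = 0.00825) for AKR1C2 and -0.20 (SE 0.04, adjusted p = 0.0171) for AKR1C1 in limma. Only 4 rows of AKR1C2 and 5 of AKR1C1 were above the background range in at least one group, and all of these were lower in doxycycline. Just 1 row of AKR1C2 and 2 of AKR1C1 were above it in both groups. The others were above it in a single group, which fixes their direction. With rows brighter than the median row alone, the differences were -0.60 for AKR1C2, -0.63 for AKR1C1 and -0.82 for AKR1C3. None of the 3 passed by the median of the rows, with differences of -0.18, -0.10 and -0.20 and adjusted p values of 0.171, 0.380 and 0.116.

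The AKR1C genes are near copies of each other and are not separate measurements throughout. AKR1C1 and AKR1C2 held 5 rows with the same values on all arrays, AKR1C2 and AKR1C3 held 1, and AKR1B10 held 4 with its neighbour AKR1B15. The row with the largest fall past the threshold in AKR1C1 was one of these, a junction at 6.78, 6.53 and 6.71 untreated and 5.68, 5.37 and 5.94 treated. It is also the row named for AKR1C2, so its measured difference of -1.01 (adjusted p = 0.0489 in limma over all rows) counts once. Its treated arrays all lay within the background range. Counted from the untreated mean of 6.67 to 6.36, the fall was 1.24-fold, a figure without error. Without the shared rows the gene differences were -0.13 for AKR1C1 (adjusted p = 0.0845, no longer passing), -0.18 for AKR1C2 (0.0455), -0.44 for AKR1C3 and 0.59 for AKR1B10. Without doxycycline array A or B the adjusted p of AKR1C1 was 0.0554 or 0.0704. How far the remaining rows can tell these genes apart was not tested.

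The likeness of AKR1C1 and AKR1C2 extends to their promoters. The RefSeq windows (GRCh38.p14), from 250 bases before to 50 after the start, share an unbroken run of 245 bases. Whether a shared promoter bears on the change of either gene was not tested. The run is shown once because it is the same in both genes. In AKR1C1 the run lies at chr10:4963169-4963413 on the plus strand and in AKR1C2 at chr10:5003863-5004107 on the minus strand.
AKR1C1 and AKR1C2: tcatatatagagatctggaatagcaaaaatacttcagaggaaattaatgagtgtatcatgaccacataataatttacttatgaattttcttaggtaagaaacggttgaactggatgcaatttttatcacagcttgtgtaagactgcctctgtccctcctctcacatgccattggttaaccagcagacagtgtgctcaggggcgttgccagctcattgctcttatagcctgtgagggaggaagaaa

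**Figure D3:**
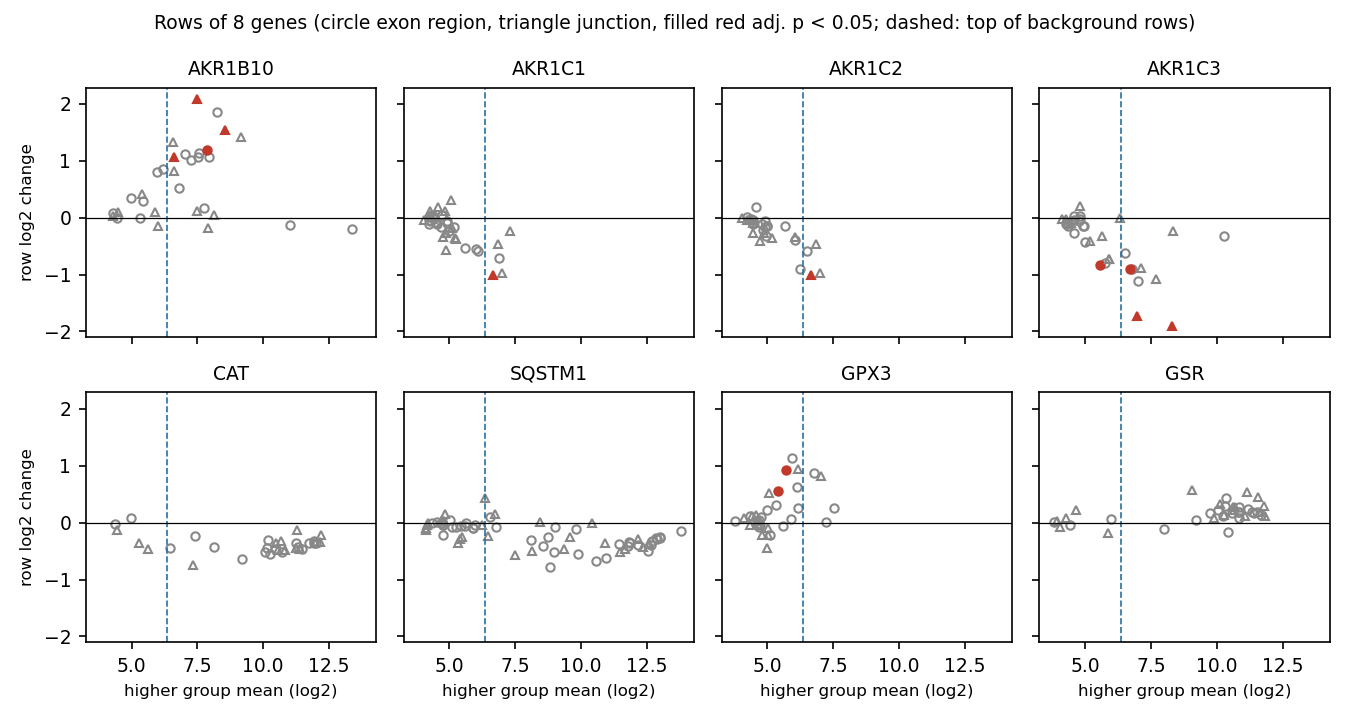
Change of each row (y axis, log2, doxycycline minus untreated) against the higher of its group means (x axis, log2 intensity) in the 8 genes that passed. The dashed line is the top of the background rows at 6.36, and filled red marks the 12 rows past the threshold. The rows of AKR1C1, AKR1C2 and AKR1C3 to the right of the line all lie below 0, as do those of CAT. A row to the right of the line may be above 6.36 in a single group, which fixes its direction.

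Among enzymes that act on superoxide and peroxide, catalase fell and SOD1 did not pass. CAT, whose product breaks down hydrogen peroxide in peroxisomes, read 9.69, 9.74 and 9.74 untreated and 9.34, 9.26 and 9.43 treated. All treated arrays were lower than all untreated ones. The change was -0.38 (SE 0.05, adjusted p = 0.00141 in limma), a fall of 1.30-fold, and it is the only member that passed under every alternative tried. All 29 rows of CAT above the background range in at least one group were lower in doxycycline, with a median change of -0.43. SOD1, the cytosolic copper and zinc superoxide dismutase gene, averaged 8.83 ± 0.052 untreated and 8.90 ± 0.013 treated (SD, n = 3), which did not pass (adjusted p = 0.378 in limma).

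Of 8 glutathione genes 2 rose (25%) and none fell, where 6.06% of all genes rose and 3.84% fell. So few genes give no direction for the group. The synthesis genes were not among those that rose. GSR, which encodes the reductase that regenerates reduced glutathione, read 9.22, 9.18 and 9.27 untreated and 9.38, 9.34 and 9.44 treated. The groups did not overlap, and the change was 0.17 (SE 0.04, adjusted p = 0.0351 in limma), or 1.12-fold. Of 31 rows above the background range 29 were higher in doxycycline, with a median change of 0.19. GSR kept its call in 1 of 6 fits that left out an array, the one without untreated C, and had adjusted p values from 0.0458 to 0.124 over the 6. It also missed the threshold with brighter rows alone (0.19, adjusted p = 0.0838) and by the row median (0.21, adjusted p = 0.0900).

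GPX3, the gene for the secreted plasma glutathione peroxidase, read 5.04, 5.03 and 5.02 untreated and 5.22, 5.17 and 5.32 treated. The treated arrays were higher, by 0.20 (SE 0.04, adjusted p = 0.0182 in limma), and both means lay within the background range. Of its 33 rows 4 were above that range in at least one group, and 2 of these in both. All 4 were higher, with a median change of 0.54, against 0.09 over all 33 rows. For the rows above it in a single group the direction is fixed by that choice, which also bears on the size of the median. The row with the largest rise past the threshold read 4.74, 4.77 and 4.83 untreated and 5.83, 5.40 and 5.89 treated (adjusted p = 0.0443 in limma over all rows), and no array of it left the background range. GPX3 differed by 0.08 with the median of its rows (adjusted p = 0.576) and by 0.53 with brighter rows alone, and without untreated array A or C its adjusted p was 0.0581 or 0.0602.

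GCLM, the modifier subunit of the enzyme for the first step of glutathione synthesis, read 9.26, 9.09 and 9.28 untreated and 8.98, 9.04 and 9.08 treated. The highest treated array was just below the lowest untreated one. The difference of -0.18 (95% interval -0.30 to -0.05) did not pass (adjusted p = 0.0831 in limma). It passed without untreated array B (-0.24, adjusted p = 0.0115) and with genes above the background range alone (adjusted p = 0.0494). Of 17 rows of GCLM above that range 16 were lower in doxycycline, but these rows share the RNA and are not replicates. GCLC, the catalytic subunit of the same enzyme, had a difference of -0.04 (95% interval -0.14 to 0.05). GPX1 and GPX4, the cytosolic peroxidase and the one that reduces lipid peroxides in membranes, had differences of -0.06 and 0.08. GSTP1, a glutathione transferase gene, had -0.04, and GPX2 stayed in the background range.

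None of the 5 measured thioredoxin genes passed. TXNRD1, a selenoprotein that reduces thioredoxin, read 8.96, 8.93 and 9.03 untreated and 8.88, 8.89 and 8.95 treated. The groups overlapped slightly, and the difference was -0.07 (95% interval -0.16 to 0.02, adjusted p = 0.380 in limma). Of its 73 rows 48 were above the background range in at least one group, and 40 of these were lower in doxycycline. With the median of its rows the TXNRD1 difference was -0.45 and passed (adjusted p = 0.0233). TXN itself differed by 0.01 (95% interval -0.06 to 0.09) and the peroxiredoxin gene PRDX1 by -0.01 (95% interval -0.09 to 0.07). PRDX3, the mitochondrial peroxiredoxin, and PRDX6 differed by 0.08 and 0.07.

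The quinone reductases and the genes of NADPH supply and sugar metabolism did not pass either. NQO1, a widely used marker of NRF2 activity, read 11.42, 11.35 and 11.54 untreated and 11.26, 11.22 and 11.36 treated. Treated array C was above untreated array B, so the groups overlapped. The difference was -0.15 (95% interval -0.28 to -0.02, adjusted p = 0.152 in limma), and 14 of 16 rows of NQO1 above the background range were lower in doxycycline. NQO2 differed by 0.05. UGDH, which makes UDP-glucuronic acid, read 9.65, 9.55 and 9.72 untreated and 9.49, 9.44 and 9.51 treated, a difference of -0.16 (95% interval -0.27 to -0.05, adjusted p = 0.0759 in limma). UGDH passed with exon regions alone, with genes above the background range alone and without untreated array B.

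In the pentose phosphate pathway PGD, the gene for 6-phosphogluconate dehydrogenase, read 9.84 on every untreated array and 9.75, 9.72 and 9.78 on the treated ones. The groups of PGD did not overlap, and the difference of -0.09 did not pass (adjusted p = 0.142 in limma). TKT and TALDO1, the transketolase and transaldolase genes, differed by -0.00261 and -0.02. The malic enzyme gene ME1 differed by -0.08, and the growth inhibitor gene OSGIN1, in the background range, by -0.04. Over the 23 members that did not pass, differences ran from -0.18 to 0.09, and their 95% intervals lay between -0.30 and 0.20. In 14 of the 31 members (45.2%) the groups did not overlap, against 26% of all genes. Of these 14 members 6 did not pass. Both means were within the background range in 7 of 31 members but in 13567 of 22085 genes, so these shares are not like for like.

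Of single rows, 12 of the members' 971 rows passed over all rows, 6 higher (0.618%) and 6 lower (0.618%), where 0.451% of all rows rose and 0.277% fell. They were rows of AKR1B10 (4), GPX3 (2), AKR1C3 (4), AKR1C1 (1) and AKR1C2 (1), the last pair with the same values. No row of CAT, SQSTM1 or GSR passed alone. The number fell to between 1 and 4 when any one array was left out, and to 4 with the replicate letters as a block. A test of uneven change, which asks whether rows of one gene change by different amounts, called 0 of 31 members in limma, and 4 had an unadjusted p under 0.05. It called 0.856% of all genes tested. The smallest adjusted p values among members were 0.0717 for AKR1C3 and 0.0745 for AKR1B10.

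Antioxidant response elements were looked for in the promoter windows, because NRF2 acts through them. The core TGACNNNGC was searched on both strands of the RefSeq windows (GRCh38.p14). It overlaps the AP-1 site TGACTCA, which lies inside the matches of GSTP1 and ME1. It was found in 7 of 29 members with a window (24.1%), against 16.1% of all genes. The stretches below show a match of several members in the gene's own direction, with the match in capitals. Where the match lies on the other strand, the capitals show its reverse complement.
GCLM, chr1:93909446-93909474, minus strand: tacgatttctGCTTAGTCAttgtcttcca
GSTP1, chr11:67583736-67583764, plus strand: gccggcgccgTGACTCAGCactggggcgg
ME1, chr6:83431170-83431198, minus strand: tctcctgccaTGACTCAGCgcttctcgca
TXNRD1, chr12:104215670-104215698, plus strand: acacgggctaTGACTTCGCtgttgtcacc
KEAP1, chr19:10502784-10502812, minus strand: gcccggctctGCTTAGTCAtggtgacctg
The match in GCLM begins 34 bases before the start and that in GSTP1 66 bases before it. None of the 5 genes shown passed the expression test. Of the 8 genes that changed 6 had a window, and 0 of these 6 held the core. A match is a description of letters and not a binding site, and elements farther from the start lie outside these windows.

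Linked pathways were read from 9 lists with 151 measured genes, none of them members. In these lists 12 genes rose (7.95%) and 10 fell (6.62%), and the median log2 change was 0.00965. Of all genes 6.06% rose and 3.84% fell, shares that also stand beside each count per list below. Single lists are too small to be read for a direction. Among the 105 list genes with a mean above the background range 7 rose (6.67%) and 8 fell (7.62%), where 11.2% and 7.28% of all such genes did. Among 17 other regulators and partners of NRF2 2 rose and 2 fell. PRKCD, the protein kinase C delta gene, rose from 5.94, within the background range, to 6.45, just above it (adjusted p = 6.87e-05 in limma). The measured difference was 0.51, and counted from 6.36 to the treated mean the rise was 1.07-fold, a figure without error. DPP3, a peptidase that binds KEAP1, rose by 0.17. FBXW11, an F-box protein of a ubiquitin ligase that recognises NRF2, fell by 0.27, and SYVN1, a ubiquitin ligase gene of the endoplasmic reticulum, fell by 0.18.

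Among 34 other glutathione genes 3 rose and 1 fell. The transferase gene GSTA4, whose product conjugates lipid peroxidation aldehydes, fell by 0.37 (adjusted p = 0.00217 in limma). MGST1, a membrane-bound transferase gene, rose by 0.15, while GSTZ1 and HAGH, a transferase and a glyoxalase, rose by 0.19 and 0.18 but stayed within the background range in both groups. Of 16 other thioredoxin genes the sestrin gene SESN1 fell by 0.36 and MSRA, a methionine sulfoxide reductase gene, rose by 0.16, both within the background range. Of 16 other NADPH genes the mitochondrial enzyme genes NNT and IDH2 rose by 0.19 and 0.15, and RPIA, of the pentose phosphate pathway, fell by 0.18.

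Of 11 other superoxide genes 2 fell (18.2%) and none rose, where 3.84% of all genes fell and 6.06% rose. Both means were within the background range in 8 of the 11, and so few genes give no direction for the list. SOD2, which encodes the manganese superoxide dismutase of mitochondria, fell by 0.42 (adjusted p = 2.96e-04 in limma) and PXDN, a matrix peroxidase gene, by 0.22. Of 18 other detoxifying enzymes 3 rose and 1 fell. PTGR1, a prostaglandin reductase gene, rose by 0.23 and EPHX1, the microsomal epoxide hydrolase gene, by 0.20. AKR1B15 rose by 0.35 and AKR1C4 fell by 0.16, both with means in the background range, and AKR1B15 holds rows in common with AKR1B10.

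None of 17 genes of the selenoprotein synthesis machinery and of other selenoproteins passed. The one with the smallest p was the selenoprotein gene SELENOO, with a difference of 0.13 (adjusted p = 0.0663 in limma). Of 8 iron genes FTL, the ferritin light chain, fell by 0.17. Of 14 partners of SQSTM1 in selective autophagy the receptor gene TAX1BP1 rose by 0.22 and ATG7, an enzyme of autophagosome formation, fell by 0.13. With the replicate letters as a block 13 list genes passed in place of 22, and 4 when each gene was taken as the median of its rows.

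**Figure D4:**
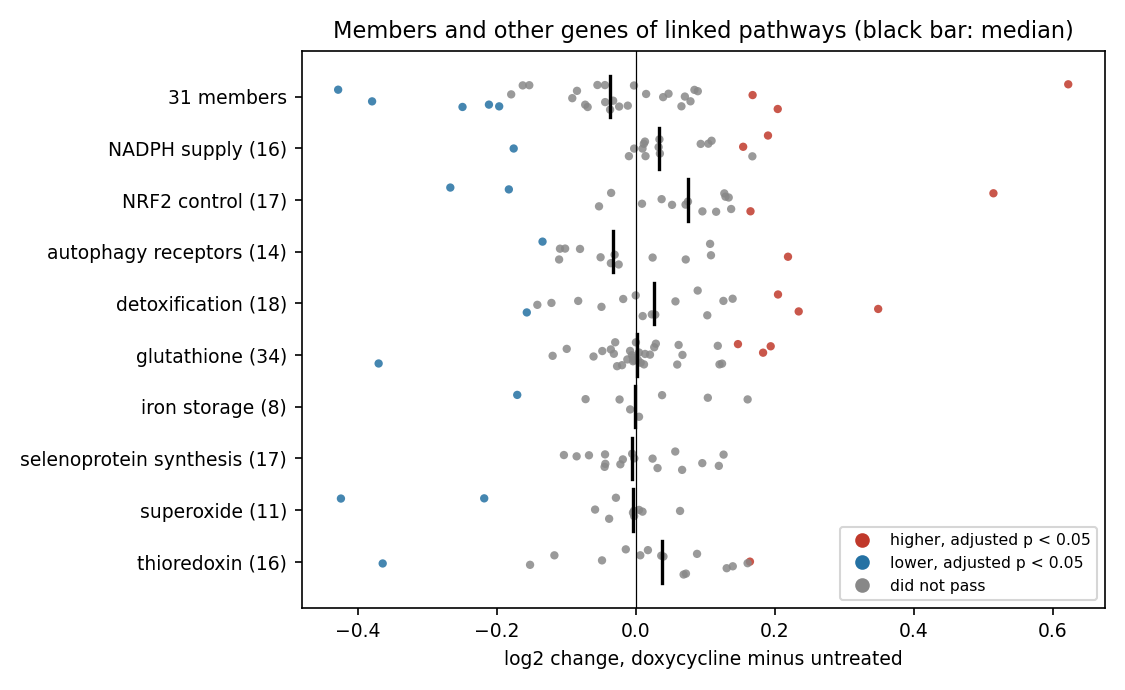
Log2 change, doxycycline minus untreated, of the 31 members and of the genes in 9 linked lists, 1 point per gene, with the number of measured genes in brackets and a black bar at each median. Red and blue mark genes past the threshold in limma over all genes; most points lie close to 0 in every list, and AKR1B10 is the member farthest to the right.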

How the data were processed

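Total RNA from 6 cultures was hybridised to 1 array each. Extraction used RNeasy Plus and labelling FlashTag biotin, per the labels' protocols, which do not describe how target for exon and junction rows was made. The deposited values are log2 intensities, 1 per row and array, a scale read from their range. Partek is named in the submitters' processing notes. Background correction and normalization were not given in the sources used here, and compression of low signals could understate changes near background.

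Of 925032 rows, 345 control rows were left out. Gene symbols came from the platform annotation, 672085 rows naming 1 gene. Genes (mean over rows), rows, and rows relative to their gene's mean (at least 3 rows, Simes p) were fitted with limma 3.58.1 (lmFit, eBayes) under R 4.3.3, with group as the single term and Benjamini-Hochberg adjustment over all features. Scripts were tested on simulated data. Members and lists were chosen with earlier results of these data known. Array values are given for members past the threshold and for NFE2L2, KEAP1, NQO1, GCLM and TXNRD1, which the rule names, and, chosen after their values were seen, for UGDH and PGD. Each list names its passing genes, at most 4 by smallest p, or 1 where none passed. Older symbols were matched through RefSeq synonyms.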

Additional observations from a re-analysis of the deposited data

How the results depend on the processing

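Results were recomputed with quantile normalization, a trended robust variance, exon regions alone, brighter rows alone, genes above the background range alone, the median of a gene's rows, the replicate letters as a block and each array left out, and, chosen after seeing the data, without rows shared between genes. All 8 member calls held under quantile normalization, the trended variance, exon regions alone and the block. With the median of the rows 2 members passed, CAT and TXNRD1. With each array left out 6 to 9 members passed. With the median 4 list genes passed in place of 22, with brighter rows 13, with the replicate block 13, and with each array left out 12 to 16. The number of member rows that passed was 12, against 4 with the replicate block and 1 to 4 with each array left out. Members with uneven change stayed at 0 in every fit run. With the median KEAP1 changed by -0.00455 in place of 0.09. The cause of these differences was not tested. Over all genes 431 rose and 265 fell with the median, against 1338 and 849. Deviations of arrays with the same letter correlated at -0.17, -0.03 and 0.22 for A, B and C. Between unlike letters the correlations ran from -0.41 (untreated C with doxycycline A) to 0.44 (untreated B with doxycycline A). The same-letter values lay within that range. With so few arrays per group, these correlations cannot decide whether a letter marks a shared plate or day.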

Other observations

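The 2 brightest rows of AKR1B10 did not share the direction of their gene. The gene's mean rose, while these exon regions had means of 13.39 and 10.998 untreated and 13.20 and 10.86 in doxycycline. Their differences of -0.19 and -0.13 did not pass over all rows (adjusted p = 0.674 and 0.787 in limma). The rows were picked after their values were seen, and what they measure was not tested.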
